A study of Mus musculus with 6 samples.

Results

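Organic anion and bile salt uptake carriers are the membrane proteins through which hepatocytes take bile salts, bilirubin, hormones and drugs out of sinusoidal blood. The group followed here holds 9 genes, chosen by name as the liver-expressed Slco genes (the organic anion transporting polypeptides, OATPs), the bile salt carrier Slc10a1, the organic anion carrier Slc22a7 and the bile salt exporter subunits Slc51a and Slc51b. They were represented by 11 of 55681 probes, found through the accessions on the arrays, among 37119 gene or accession names in all. Slco2b1 and Slc10a1 had 2 probes each and the other members 1.

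Liver RNA was measured on 6 Agilent 2-colour arrays. Fra-1hep mice carry extra Fra-1 in hepatocytes, a subunit of the transcription factor AP-1 and the product of Fosl1. They were C57BL/6J animals aged 26 to 28 weeks that received no treatment. Single Fra-1hep mice in Cy5 filled 5 arrays, each beside a Cy3-labelled pool of C57BL/6J wild-type liver RNA of the same age, made from 5 chow-fed mice according to the design text. On the last array the dyes were swapped, with pooled Fra-1hep RNA in Cy3 beside wild-type RNA in Cy5. The design text counts 6 single Fra-1hep mice, whereas the sample labels give 5 mice and this dye-swapped pool, and the labels were followed. The promoter that drives Fra-1, the diet of the Fra-1hep mice and their number in the pool are not given in the sources used here.

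The scanner software called 48.5 to 58.9% of probes well above background for Fra-1hep RNA, against 45.0 to 50.7% for wild-type RNA, and 0 spots were saturated. The higher share was that of the Cy5 channel on all 6 arrays, with 48.5% for Fra-1hep and 50.7% for wild-type RNA on the dye-swapped array. Precision is limited by how few arrays there are. The arrays of mice 2 and 3 differed only by about as much as replicate spots do (1.03 times), while the other pairs of mice differed by 1.84 to 2.40 times that noise. Their values were therefore averaged, which leaves 4 counted mouse samples. All wild-type values come from 1 pool, whose own spread between animals was not measured. The Fosl1 probe rose above background on 0 of 6 arrays for either genotype (log2 ratio -0.07), so it does not check the labels. The Y-linked genes Ddx3y, Eif2s3y and Uty were detected for both genotypes on each of the 6 arrays, with log2 ratios of Fra-1hep over wild type from -0.08 to 0.15 that did not pass the test, and Xist was below the detection filter.

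In textbook accounts, Slc10a1 (NTCP) brings conjugated bile salts into the hepatocyte together with sodium, and OATPs carry unconjugated bile salts, bilirubin and steroid conjugates without sodium. Slco1a1, Slco1a4 and Slco1b2 are the main liver OATPs of mice, and Slco1a1 is known as a male-biased gene that depends on pulsatile growth hormone. Slc51a and Slc51b form OSTα-OSTβ, a facilitated exporter that is abundant in ileum and scarce in healthy mouse liver.

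Of the 9 carriers, 1 fell strongly, 1 was lower by an amount that varied widely between mice, 5 had fitted log2 ratios between -0.14 and 0.03, Slc10a1 had probes that disagreed and Slc51a was not detected. Slco1a1 was 6.63-fold lower in Fra-1hep liver. Slc22a7 was lower on all 6 arrays without passing the test. After the filter for detection, 8 members were tested, all but Slc51a. At an adjusted p under 0.05, 1 of these 8 was lower and 0 were higher, where 12.5% of all 22848 genes tested changed, 5.97% higher and 6.51% lower. The count of called members is thus at the background and shows nothing about the carriers as a set. The median log2 ratio of the 8 members was -0.08, against 0.01 over all genes tested. Median centring of the arrays in place of loess made 74.8% of all changed genes higher, against 47.8% here. The log2 ratio of each probe on each array is shown in the plot of carrier probes.

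**Figure D1:**
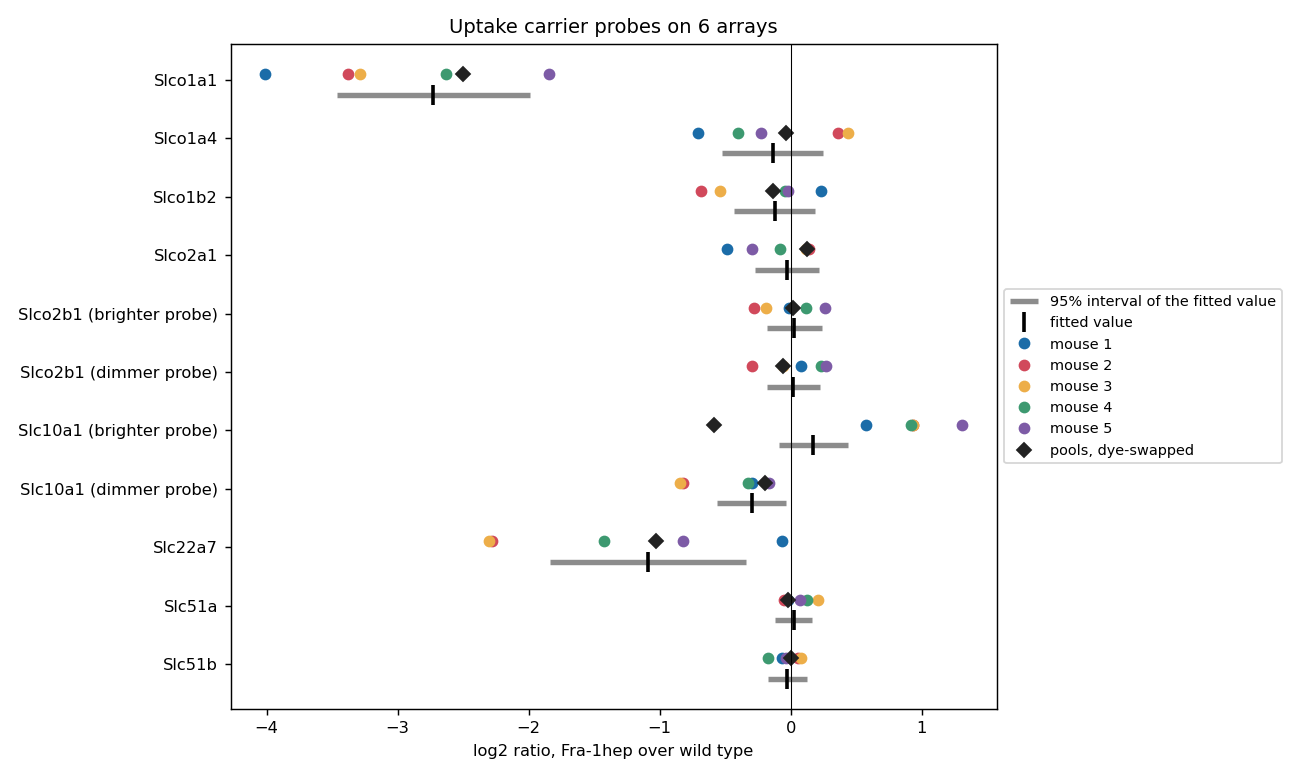
Log2 ratio of Fra-1hep over wild type (x axis) for the 11 carrier probes (rows). Circles are the 5 Fra-1hep mice and diamonds the dye-swapped pools, black ticks the fitted values and grey bars their 95% intervals from a fit over all probes; Slc51a was not above background on any array. The Slco1a1 points lie between -4.01 and -1.84, the Slc22a7 points between -2.31 and -0.06, and the brighter Slc10a1 probe has the pools at -0.58 and the mice from 0.57 to 1.31.

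Slco1a1 (NM_013797, OATP1A1), a sodium-independent carrier of bile salts and steroid sulfates, gave a normalised signal of 219 in mouse 1, 319 in mouse 2, 330 in mouse 3, 532 in mouse 4 and 884 in mouse 5. The Fra-1hep pool gave 530. The wild-type pool gave 3007 to 3527 over its 6 measurements, so that no Fra-1hep value came near a wild-type one. Its log2 ratio was -4.01 in mouse 1, -3.38 in mouse 2, -3.29 in mouse 3, -2.63 in mouse 4, -1.84 in mouse 5 and -2.50 in the dye-swapped pools. Mouse 1 had the lowest level and mouse 5 the highest, a range over mice that was much wider than that of the repeated wild-type pool (SD of log2 signal 0.87 over 4 Fra-1hep samples and 0.08 over 5 wild-type measurements). The fitted log2 ratio was -2.73 (SE 0.33, n = 4, limma adjusted p = 0.00242), a 6.63-fold lower level with a 95% interval of 3.89 to 11.3-fold. Only 0.525% of all genes tested were called and at least 2-fold lower. Within the 3 slides the ratio was -3.70 (mice 1 and 2), -2.73 (mice 3 and 4 with the dye-swapped array) and -1.84 (mouse 5 alone). Dye is balanced in the second value only. The call was lost with an intensity trend and robust variance (adjusted p = 0.0606), and over all alternatives the adjusted p ran from 0.000552 to that value.

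Slco1a1 lies in a row of related genes on mouse chromosome 6, in the order Slco1c1, Slco1b2, Slco1a4, Slco1a1, Slco1a6 and Slco1a5 along the RefSeq annotation. The gene starts of Slco1b2, Slco1a4 and Slco1a1 are printed because these neighbours differed in their ratios, and that of Slc51b because it holds both motifs searched. Each run covers 250 bases before to 50 after the start (RefSeq, GRCm38.p6, gene strand). Capitals mark matches on either strand to TGANTCA, the letters that AP-1 dimers such as those with Fra-1 bind, or to TTCNNNGAA, the spacing bound by STAT5 of the growth hormone pathway.
Slco1a1, chr6:141946913-141947212, minus strand: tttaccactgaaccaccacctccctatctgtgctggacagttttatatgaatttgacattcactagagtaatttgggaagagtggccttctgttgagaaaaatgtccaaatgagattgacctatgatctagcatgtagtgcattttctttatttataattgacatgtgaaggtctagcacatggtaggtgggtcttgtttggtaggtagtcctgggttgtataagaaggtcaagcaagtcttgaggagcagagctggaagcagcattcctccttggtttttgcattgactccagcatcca
Slco1a4, chr6:141856171-141856470, minus strand: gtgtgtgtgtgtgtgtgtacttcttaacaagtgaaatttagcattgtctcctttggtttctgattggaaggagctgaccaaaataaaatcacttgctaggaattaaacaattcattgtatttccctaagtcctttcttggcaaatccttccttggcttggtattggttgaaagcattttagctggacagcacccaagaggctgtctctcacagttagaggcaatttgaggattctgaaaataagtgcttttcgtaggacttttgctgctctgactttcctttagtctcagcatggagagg
Slco1b2, chr6:141629268-141629567, plus strand: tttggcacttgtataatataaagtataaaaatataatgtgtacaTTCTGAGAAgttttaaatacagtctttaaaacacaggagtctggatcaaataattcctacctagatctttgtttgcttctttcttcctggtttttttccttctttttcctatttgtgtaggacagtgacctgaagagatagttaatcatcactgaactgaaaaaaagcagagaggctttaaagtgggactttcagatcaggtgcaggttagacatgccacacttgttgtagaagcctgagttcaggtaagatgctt
Slc51b, chr9:65422724-65423023, minus strand: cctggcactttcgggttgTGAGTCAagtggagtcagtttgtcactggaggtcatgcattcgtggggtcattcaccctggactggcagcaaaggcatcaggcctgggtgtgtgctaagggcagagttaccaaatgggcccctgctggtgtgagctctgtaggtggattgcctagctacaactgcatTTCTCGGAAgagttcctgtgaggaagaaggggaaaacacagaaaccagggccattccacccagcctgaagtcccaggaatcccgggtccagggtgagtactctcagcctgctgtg

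Neither motif was found in the windows of Slco1a1 and Slco1a4. The Slco1b2 window held TTCTGAGAA, beginning 206 bases before the start. The Slc51b window held TGAGTCA at 232 and TTCTCGGAA at 65 bases before the start. The reference table gave 11 starts for 8 of the members, all but Slc22a7. TGANTCA occurred in 2 of the 11, in Slc51b and in 1 of the 3 Slco2b1 starts (TGACTCA, beginning at base 14 after the start), against 7.81% of all 32851 windows of this length. TTCNNNGAA occurred in 5 of the 11, in Slco1b2, 2 Slco2b1 starts, 1 of 2 Slc10a1 starts and Slc51b, against 8.30% of all windows. These are matches of letters only, and the arrays measured no binding.

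Slco1a4 (NM_030687, OATP1A4), the digoxin-carrying neighbour of Slco1a1 and a known target of the xenobiotic receptor PXR, had ratios of both signs. The log2 ratio was -0.71 in mouse 1, 0.36 in mouse 2, 0.44 in mouse 3, -0.40 in mouse 4, -0.23 in mouse 5 and -0.04 in the pools. Mice 2 and 3, which count once, were above the wild-type pool and the other 3 mice below it. The fitted value was -0.14 (95% interval -0.54 to 0.26, adjusted p = 0.669).

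Slco1b2 (NM_020495, OATP1B2), the mouse counterpart of the human hepatocyte OATP1B carriers of bilirubin and statins, had mouse 1 and mice 2 and 3 at opposite ends to Slco1a4. The normalised signal was 54515 in mouse 1, 31427 in mouse 2, 33095 in mouse 3, 43770 in mouse 4 and 41693 in mouse 5, and 40676 in the Fra-1hep pool, against 42230 to 49323 in 5 measurements of the wild-type pool with mice 2 and 3 averaged. Mice 2 and 3 were the lowest and mouse 1 the highest, and the Fra-1hep range enclosed that of the wild-type pool. The fitted log2 ratio was -0.12 (95% interval -0.44 to 0.19, adjusted p = 0.625), with mice from -0.68 to 0.23 and the pools at -0.13.

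Slco2b1 (NM_175316, OATP2B1), a broadly expressed carrier of steroid sulfates, had a fitted log2 ratio of 0.03 (95% interval -0.19 to 0.24, adjusted p = 0.895), and its dimmer probe gave 0.02. The brighter probe ran from -0.28 in mouse 2 to 0.26 in mouse 5, with the pools at 0.02. Slco2a1 (NM_033314), the prostaglandin transporter, which in liver is known from endothelial cells, had a fitted value of -0.03 (95% interval -0.28 to 0.22, adjusted p = 0.895). Its ratios were -0.49 in mouse 1, -0.30 in mouse 5 and -0.09 in mouse 4, but 0.14 in mouse 2, 0.11 in mouse 3 and 0.13 in the pools. For Slco1b2, Slco2a1 and Slco2b1 the sign of these small values changed with the normalisation or the samples used, and each interval spans 0. Of 14 endothelial markers 10 fell and 2 rose, where 6.51% of all genes tested were lower and 5.97% higher. Among these 14 markers were Clec4g (-0.95) and Flt1 (0.83). Their summed signal was 17402 to 23230 for Fra-1hep RNA and 27282 to 28918 for wild-type RNA. In bulk liver RNA, fewer cells of a type and less RNA per cell cannot be told apart, and the part of endothelial cells in the Slco2a1 value was not tested.

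Slc22a7 (NM_144856, OAT2), a sodium-independent carrier of organic anions and cyclic nucleotides, showed a wide spread between mice. The normalised signal was 4826 in mouse 1, 1066 in mouse 2, 1192 in mouse 3, 2163 in mouse 4, 2902 in mouse 5 and 2583 in the Fra-1hep pool, against 5047 to 5889 in the 6 measurements of the wild-type pool. The log2 ratio was -0.06 in mouse 1, -2.28 in mouse 2, -2.31 in mouse 3, -1.43 in mouse 4, -0.82 in mouse 5 and -1.03 in the pools. Mouse 1, which had the lowest Slco1a1, was close to wild type for Slc22a7, and every other Fra-1hep sample was clearly below the wild-type pool. The fitted value was -1.09 (SE 0.33, n = 4, 95% interval -1.87 to -0.31), with an unadjusted p of 0.0122 and a limma adjusted p of 0.0770. Slc22a7 passed without mouse 1 (-1.27, adjusted p = 0.0231) and without the dye-swapped array (-1.15, adjusted p = 0.0263), and over all alternatives the adjusted p ran up to 0.302. The plot of both channels shows the spread of Slc22a7 beside the fall of Slco1a1 in every sample.

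**Figure D2:**
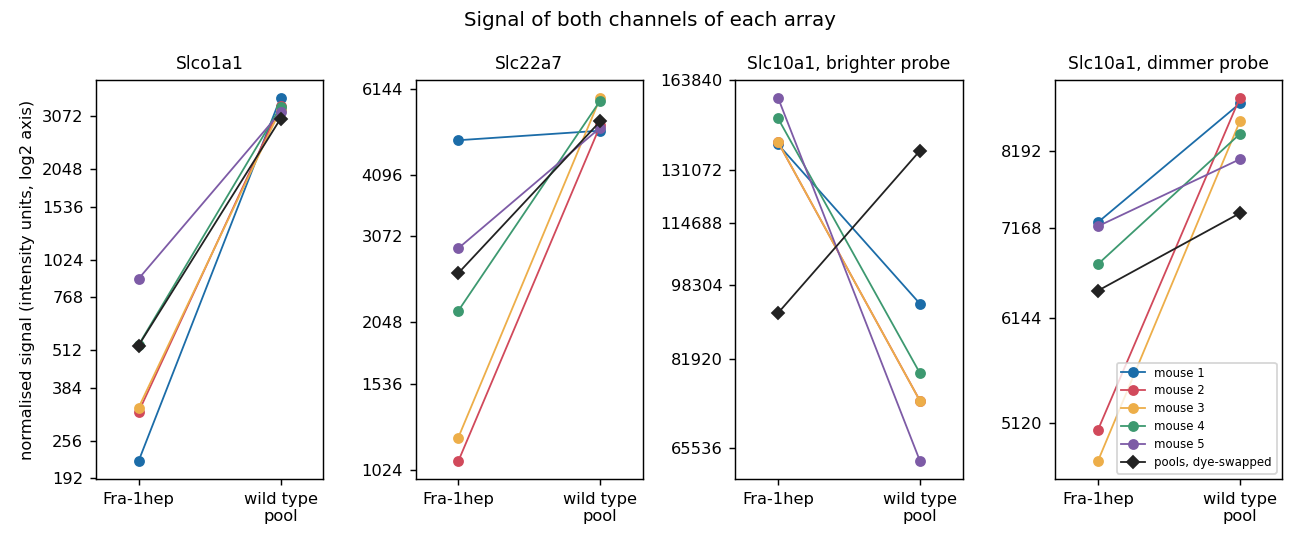
Normalised signal (y axis, intensity units on a log2 axis that differs between panels) of the Fra-1hep channel (left) and the wild-type pool channel (right), joined for each of the 6 arrays. Slco1a1 is at most 884 in Fra-1hep samples and at least 3007 in the wild-type pool, Slc22a7 in mouse 1 meets the wild-type level, and the brighter Slc10a1 probe turns round on the dye-swapped array.

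Slc10a1 (NM_011387, NTCP), the main sodium-coupled carrier of conjugated bile salts, was measured by 2 probes that disagreed. On the brighter probe (A_55_P1954987) the Fra-1hep signal was 139653 to 156788 in the 4 counted samples and 91771 in the Cy3-labelled pool. The wild-type signal was 63443 to 93874 in Cy3 and 137523 in Cy5 on the dye-swapped array. The channel labelled with Cy5 was thus the higher one on all 6 arrays, whichever genotype it held. With log2 ratios of 0.57 to 1.31 in mice and -0.58 in the pools, the fit that includes dye gave 0.17 (95% interval -0.10 to 0.45, adjusted p = 0.402). Without the dye-swapped array, where dye and genotype cannot be told apart, the value was 0.93 (adjusted p = 0.000942).

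The dimmer Slc10a1 probe (A_52_P69109) was lower on all 6 arrays. The log2 ratio was -0.30 in mouse 1, -0.83 in mouse 2, -0.84 in mouse 3, -0.32 in mouse 4, -0.17 in mouse 5 and -0.19 in the pools, with mice 2 and 3 the lowest. In the fit over all probes it was -0.30 (SE 0.11, 95% interval -0.56 to -0.04), with an adjusted p of 0.146. The mean of both probes gave -0.06 (adjusted p = 0.738). No direction for Slc10a1 was therefore settled by these arrays.

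Slc51b (NM_178933), the small β subunit of the bile salt exporter, was dim but detected for both genotypes on each of the 6 arrays. Its normalised signal averaged 104 in 4 Fra-1hep samples (range 87.5 to 123), against 109 in wild type (98.5 to 117). The fitted log2 ratio was -0.03 (95% interval -0.18 to 0.13, adjusted p = 0.852), and the ranges of the groups overlapped. Slc51a (NM_145932), the larger α subunit, was called above background on 0 of 6 arrays for either genotype, with ratios from -0.05 to 0.21 that cannot be read as levels. Its raw signal lay above 65.6 to 97.7% of 308 negative control spots for Fra-1hep RNA and 34.1 to 90.9% for wild-type RNA.

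Among members the mice did not keep one order. Mouse 1 had the lowest Slco1a1, Slco1a4 and Slco2a1 and the highest Slco1b2 and Slc22a7. Mice 2 and 3 together had the lowest Slco1b2, Slco2b1 and Slc22a7 and the highest Slco1a4 and Slco2a1. Mouse 5 had the highest Slco1a1 and Slco2b1.

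The other genes of the carrier families that were detected changed in both directions. Of 4 other Slco genes tested, Slco3a1 (-0.15, adjusted p = 0.156) and Slco4a1 (0.17, adjusted p = 0.197) did not pass. Slco1a6 and Slco1c1 were called higher, but both entered the test through the Fra-1hep channel alone, since wild-type RNA was detected on 0 of 6 arrays for either, and their number is therefore no sign of a rise in the family. For such genes the arrays give only a bound. Slco1a6, which lies next to Slco1a1, was at least 1.75-fold higher in Fra-1hep liver (adjusted p = 0.0208, and 0.136 where a robust variance followed intensity), with a normalised signal of 126, against 67.5 in wild type. Slco1c1, a thyroid hormone carrier of brain capillaries, was at least 1.32-fold higher (adjusted p = 0.00664). Processed signals with no offset gave log2 ratios of 4.04 for Slco1a6 (adjusted p = 0.0349) and 1.63 for Slco1c1 (adjusted p = 0.0516), so that the size of these differences depends on the treatment of dim signal. Signal shared among probes of close Slco1a paralogs was not measured.

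Of 4 other Slc10 genes tested, Slc10a2 rose, Slc10a6 was called higher with wild-type RNA undetected, and 2 did not pass. Slc10a2, the apical sodium-coupled bile salt carrier of ileum and bile duct cells, was 1.89-fold higher, with log2 ratios of 1.14 in mouse 1, 1.06 in mouse 2, 1.04 in mouse 3, 0.51 in mouse 4, 0.57 in mouse 5 and 1.01 in the pools (fitted 0.92, SE 0.13, adjusted p = 0.00401). It was higher on all 6 arrays and kept its call under all 17 alternatives. Of 11 cholangiocyte markers tested, which include Slc10a2, 4 rose and 0 fell, where 5.97% of all genes tested were higher and 6.51% lower. The markers were led by Spp1 (1.04) and Slc10a2, and 1 further marker was below the filter. Their summed signal was 3561 to 4620 for Fra-1hep RNA and 2566 to 2777 for wild-type RNA, and the part of bile duct cells in the Slc10a2 value was not tested. Slc10a6, a carrier of sulfated steroids, also entered the test through the Fra-1hep channel alone, with 0 of 6 arrays detected for wild-type RNA, and was at least 1.63-fold higher (adjusted p = 0.00555). Its log2 ratio was 3.08 with processed signals.

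Of 13 other Slc22 genes tested, 5 were called lower, 1 higher and 7 did not pass, where 6.51% of all genes tested were lower and 5.97% higher. The orphan carrier Slc22a28 fell by 0.58 on the log2 scale (adjusted p = 0.00312) and was detected for both genotypes on each array. Its paralogs Slc22a26 (adjusted p = 0.0018), Slc22a27 (adjusted p = 0.0103) and Slc22a29 (adjusted p = 0.006) were called lower with Fra-1hep RNA near background, detected on 1 of 6 arrays for Slc22a26 and Slc22a27 and on 0 for Slc22a29, and they entered the test through the wild-type channel. The number of Slc22 genes called lower is therefore no sign of a fall in the family. Slc22a29 was at least 1.22-fold lower. The sizes for these genes depended on the treatment of dim signal, with log2 ratios of -0.86 here and -2.54 with processed signals for Slc22a26, -0.46 and -2.36 for Slc22a27 (adjusted p = 0.0692 with processed signals), and -2.42 with processed signals for Slc22a29. Signal shared among probes of these close paralogs was not measured. Small changes of the carnitine carrier Slc22a5 (-0.30, adjusted p = 0.0438) and of Slc22a17 (0.23, adjusted p = 0.0384) did not pass under 8 of 17 alternatives each. They were lost without mouse 2, 4 or 5 or without mice 2 and 3 for Slc22a5 (adjusted p up to 0.0863) and without mouse 1, 2, 4 or 5 or without mice 2 and 3 for Slc22a17 (up to 0.0812). The plot of carrier families sets the members among these relatives.

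**Figure D3:**
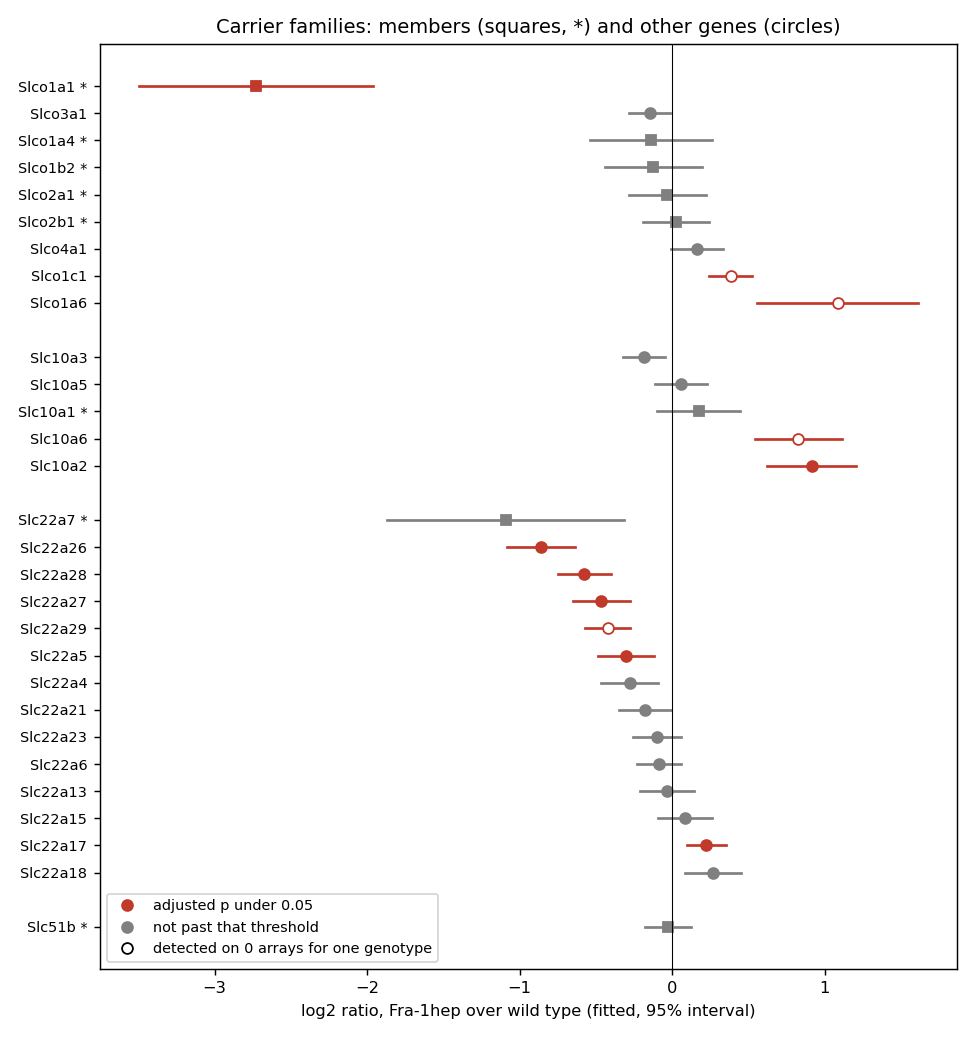
Fitted log2 ratio of Fra-1hep over wild type with its 95% interval (x axis) for the tested Slco, Slc10, Slc22 and Slc51 genes (rows, sorted within each family). Squares with asterisks are the members, circles the other genes, red marks an adjusted p under 0.05, and open circles mark genes that were detected on 0 arrays for one genotype, whose position is no measured size. Slco1a1 lies at -2.73 and Slc22a7 at -1.09, and the detected genes Slc10a2 and Slc22a28 at 0.92 and -0.58.

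The pumps and enzymes that handle bile salts after uptake were counted from lists of textbook genes. For comparison, 6.51% of all genes tested were lower and 5.97% higher. Of 11 efflux pumps and partners, 4 fell and 0 rose, led by Abcb11 (BSEP), the canalicular bile salt export pump, at -0.73 (SE 0.10, adjusted p = 0.00408) and by the sterol transporter subunit Abcg5 at -0.51 (adjusted p = 0.0064). Abcb11 kept its call under all 17 alternatives, and Abcg5 lost it under 1 of 17 (adjusted p = 0.0647). Of 15 genes of bile acid synthesis and conjugation, 3 fell, 1 rose and 11 did not pass. Cyp8b1, the 12α-hydroxylase that makes cholic acid, was at -0.85 (adjusted p = 0.0189), a call lost under 3 of 17 alternatives (adjusted p up to 0.0954). Cyp7b1, an oxysterol hydroxylase of the alternative pathway, was at -0.76 (adjusted p = 0.0329). Its call was lost under 7 of 17 alternatives (adjusted p up to 0.134), among them without mouse 5 (0.0585) and without mice 2 and 3 (0.0659). Acox2, a peroxisomal side-chain oxidase, rose by 0.31 (adjusted p = 0.0369). That call was lost under 5 of 17 alternatives (adjusted p up to 0.124), among them without mouse 4 (0.0712) and without mouse 1 (0.0522). List medians were -0.03 for efflux and -0.03 for synthesis, against 0.01 over all genes.

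Of 20 receptors and hepatocyte transcription factors tested, 1 fell, 1 rose and 18 did not pass. Over all genes tested, 6.51% were lower and 5.97% higher, so these counts are at the background. They show nothing about the 20 genes as a set. Nr1i3 (CAR), a xenobiotic receptor, fell by 0.65 on the log2 scale (adjusted p = 0.015), and the sphingosine phosphate and bile salt receptor S1pr2 rose by 0.48 (adjusted p = 0.00328). Nr1i3 lost its call under 2 of 17 alternatives (adjusted p up to 0.0918), and S1pr2 kept its call under all 17. Of 11 targets of PXR and CAR, Cyp2b10 (-1.18, adjusted p = 0.0369) and Cyp3a11 (-0.48, adjusted p = 0.016) fell, Cyp2c55 rose (1.14, adjusted p = 0.00179) and 8 did not pass. Hepatocyte markers changed in both directions, 3 higher and 2 lower of 12, with Pck1 at 1.19 and Alb at -0.65. Pck1 was at 0.85 to 1.63 in mice and 1.17 in the pools. Fgb was at 0.89 to 2.01 in mice but at 0.13 in the pools. The remaining gene called higher was at 0.57 to 1.08 in mice but at 0.003 in the pools. The last 2 rises thus rest on the mouse arrays, where dye and genotype cannot be told apart. Alb ran from -0.46 to 0.07 in mice and was at -1.08 in the dye-swapped pools, so that its fitted fall rests largely on that 1 array. The summed signal of the 12 hepatocyte markers was 776120 to 980712 for Fra-1hep RNA and 656958 to 911322 for wild-type RNA. These sums have no term for dye, and Fra-1hep RNA was in Cy5 on all mouse arrays, so they do not compare the genotypes. Of 11 Kupffer cell markers 10 fell and 0 rose, with a median of -0.59, and of 10 stellate cell markers 2 fell and 1 rose, with a median of -0.08.

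The gene closest to Slco1a1 over the 6 arrays, by the root mean square difference of log2 ratios among 13954 other genes with a symbol, was Hsd3b5 (difference 0.58), a male-biased steroid dehydrogenase. It was followed by the pseudogene Serpina4-ps1 (0.66) and the kynurenine aminotransferase Kyat3 (0.67). Hsd3b5 was at -3.16 in mouse 1, -3.20 in mouse 2, -3.54 in mouse 3, -3.36 in mouse 4, -2.16 in mouse 5 and -3.26 in the pools, with mouse 5 the least changed as for Slco1a1. The measure finds genes of like size of change as well as like order of mice. Over all genes tested, 6.51% were lower and 5.97% higher. Of 16 male-biased liver genes tested, 7 fell, 2 rose and 7 did not pass, with a median of -0.34. Elovl3 (-2.02, adjusted p = 0.000404) fell, and Gstp1 (0.78, adjusted p = 0.00281) and C6 (0.46, adjusted p = 0.0125) rose. Of 14 female-biased genes on the arrays, 7 were detected and tested, with a median of -0.42. Between samples this median ran from -0.64 to -0.07, and that of the male-biased genes from -0.57 to -0.14. The medians therefore give no ranking of the lists. The lowest fitted log2 ratio was -0.61 among female-biased and -3.14 among male-biased genes. Of the 7 female-biased genes tested, 3 fell, led by Cyp2b9 (-0.61) and Cyp3a16 (-0.55), and Fmo2 rose (0.51, adjusted p = 0.00863). Fra-1hep RNA was near background for Cyp2b9, detected on 3 of 6 arrays. It was detected on 1 of 6 for the remaining gene called lower, which entered the test through the wild-type channel. Of 10 growth hormone signalling genes, Igfals (-0.48, adjusted p = 0.00859) and Igf1 (-0.44, adjusted p = 0.00525) fell and 8 did not pass. The part of growth hormone signalling in the Slco1a1 value was not tested.

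**Figure D4:**
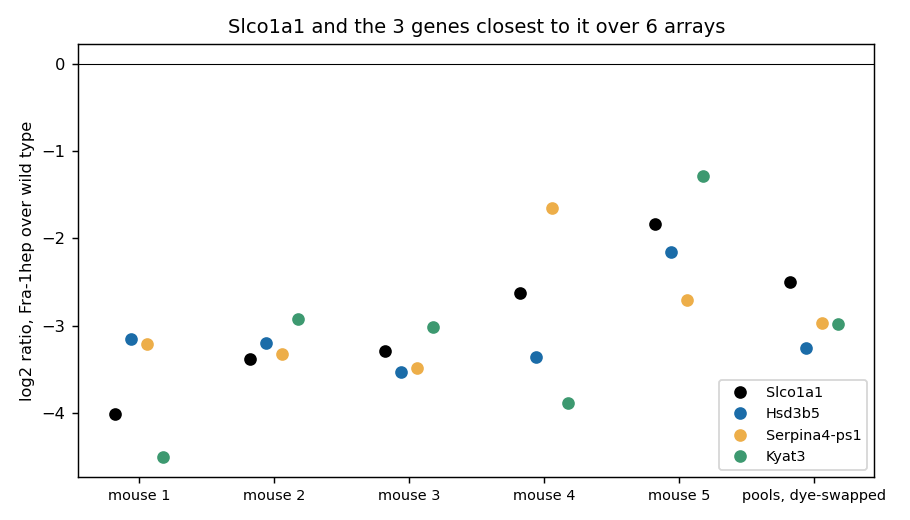
Log2 ratio of Fra-1hep over wild type (y axis) of Slco1a1 and the 3 genes closest to it, on each of 6 arrays (x axis, mice in no order). All points lie between -4.51 and -1.29, and mouse 5 is the least changed sample for Slco1a1, Hsd3b5 and Kyat3.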

How the data were processed

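Spot intensity, as median signal and median local background of each channel, was read from the array scans by the authors with Agilent's Feature Extraction software, per the file headers (version 10.7.3.1, written as 10.7 among the submitters' tools). The same software made the processed signals and their log10 ratio of Cy5 over Cy3 in the deposited files. In the authors' deposited value table each entry is the log2 ratio of processed signals, uncentred (column medians -0.18 to 0.06), with the dye-swapped array already turned to Fra-1hep over wild type, as found by setting it against the scanner values.

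Here median signals were corrected with normexp (offset 50) and loess in limma 3.58.1 under R 4.3.3, with control and outlier spots at weight 0. Ratios of dim probes are drawn towards 0 by this offset. Signals per channel were scaled further with Aquantile, and neither they nor their sums over markers have a term for dye. Probes were named by accession through RefSeq GRCm38.p6 (26056 with 1 symbol), for names and order only, since the arrays were designed on another build. A gene was its brightest probe, tested if well above background in Fra-1hep on at least 3 of 5 mouse arrays or in wild type on at least 3 of 6 arrays. limma fitted genotype and dye over 4 Fra-1hep samples and the dye-swapped array, 2-sided against 0, with Benjamini-Hochberg adjustment over 22848 genes. That array weighs as much as all mice together and its own error is not estimated. The fit was tested on simulated data. An "at least" fold is the bright mean over a floor, taken on each array as the larger of the dim probe's signal and the smallest detected signal, and is open to dye bias.

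Members and lists were chosen with earlier results of these data known. Named are all members with all probes, called genes of the Slco, Slc10 and Slc22 families, up to 2 called genes per direction of other lists, and the 3 genes closest to each called member. A gene of a related carrier family is not reported here and stands outside its list's counts.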

Additional observations from a re-analysis of the deposited data

How the results depend on the processing

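Results were recomputed under up to 17 other settings, of which the one without mice 2 and 3, and those of related genes, were chosen after seeing the data. Slco1a1 kept its direction under all 17 (-3.00 to -2.55) and its call under 16; without mice 2 and 3 it was at -2.66 (limma adjusted p = 0.00729) and Slc22a7 at -0.90 (adjusted p = 0.0581). The members called lower numbered 0 with a robust variance that follows intensity, 2 without the dye-swapped array and 1 to 2 when single mice were left out. The members called higher numbered 1 without the dye-swapped array, which was Slc10a1, and 0 in every fit that left out a mouse. The median log2 ratio of the members was -0.12 with processed signals, -0.030 with no filter on dim probes, -0.15 without the dye-swapped array and 0.015 with median centring, and -0.083 to -0.041 when single mice were left out. Small values turned their sign: with median centring Slco1b2 was at 0.047 and Slco2a1 at 0.11; with the authors' table Slco2a1 was at 0.013; with 5 separate mouse arrays Slco2a1 was at 0.0010 and Slco2b1 at -0.0010; with slide as a random block Slco2b1 was at -0.0013; when single mice were left out Slco2a1 ran from -0.047 to 0.020, its highest without mouse 1, and Slco2b1 from -0.013, without mouse 5, to 0.034; with the mean of both probes Slc10a1 was at -0.063. The cause was not tested, except that the last averages 2 probes of opposite sign. Among other lists, only the 20 called genes of the Slco, Slc10, Slc22, efflux, bile acid synthesis and receptor lists were recomputed. Of these, 7 kept their call under every setting that gave them a value and none turned its sign. Called genes found only in the remaining lists were not rechecked in this way. Of all genes tested 2851 were called, against 1546 with processed signals, 1487 in the authors' table and 6099 without the dye-swapped array, a fit that takes dye for genotype. Every fit used ratios within arrays, which already pair each sample with the same wild-type pool. No pairing of single animals was possible, because wild-type RNA came from 1 pool and the 2 kinds of array share no animal number. Signal near background limits Slc51a, Slc22a26, Slc22a27, Cyp2b9 and the genes given as "at least".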
